A study of Mus musculus with 19 samples.

Results

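The immediate early response genes examined here were Fos, Fosb, Jun, Junb, Atf3, Egr1, Nr4a1, Dusp1, Btg2 and Ier2, 10 of the 47069 genes counted in 6 RNA-seq libraries of retinal ganglion cells (RGCs), the output neurons of the retina. They were chosen by name, and each of the 10 symbols matched 1 Ensembl gene of the mouse genome build GRCm38. The study compared ipsilateral RGCs (iRGCs), whose axons turn away from the midline at the optic chiasm, with contralateral RGCs (cRGCs), whose axons cross it. Both populations were sorted by flow cytometry as GFP-positive cells from retinas at E16.5, from embryos of the strain C57/DBA F1, with male and female embryos pooled and the genotype given as WT, and 3 libraries were made of each. The 3 iRGC libraries, titled Sert, came from embryos in which Slc6a4-Cre, driven by the serotonin transporter gene, switched on Sun1-GFP, a green tag of the nuclear envelope. The 3 cRGC libraries, titled Brn3b, came from embryos in which Pou4f2-Cre, knocked into the locus of Pou4f2 (Brn3b), switched on the same tag. Pou4f2-Cre marks RGCs over the whole retina, so the ventrotemporal region, the home of the iRGCs, was cut away from these retinas before sorting. All 6 libraries therefore carried a Cre transgene and the Sun1-GFP reporter, and all went through the same digestion with collagenase and trypsin for 25 min at 37 °C. The number of embryos behind each library and the time from dissection to lysis are not given in the sources used here. Since nothing says that the libraries of a population came from separate litters, the p-values below measure the spread between these libraries, which may be technical.

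Immediate early genes are switched on within minutes of a stimulus, without the need for new protein, by factors already present in the nucleus such as SRF with its ternary complex partners and CREB, which the ERK, p38 and calcium or cAMP pathways activate. Their mRNAs are short lived, and their products are either transcription factors, chiefly AP-1 dimers of a Fos and a Jun protein, or proteins that shut the response off again. In neural tissue they are known as markers of growth factor signalling, of electrical activity and of stress, including the enzymatic dissociation of tissue, and AP-1 and Egr factors also take part in the proliferation of progenitors.

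The labels were first checked against the genes behind them. Slc6a4, the gene whose Cre driver marked the iRGCs, stood at 2.06, 33.4 and 116 CPM, read counts scaled to the size of the library, in iRGC replicates 1, 2 and 3 and at 48.1, 35.4 and 30.5 CPM in cRGC replicates 1, 2 and 3. It did not separate the populations (log2 fold change 0.41 ± 0.93 (SE), adjusted p = 0.768), and iRGC replicate 1 held the lowest value of the 6 libraries. Zic2, the transcription factor known to direct the ipsilateral turn, stood at 134, 173 and 157 CPM in iRGCs and at 57.0, 60.2 and 65.7 CPM in cRGCs, and was higher in iRGCs (log2 fold change 1.34 ± 0.13, adjusted p = 0.000209). Pou4f1 (log2 fold change -2.28, adjusted p = 0.0004) and Pou4f2 (-1.15, adjusted p = 0.00424), POU factors of RGCs, were lower in iRGCs. Of 13 RGC markers 12 were lower in iRGCs, and 11 of 11 retinal progenitor markers were higher there, beside 23.1% lower and 23.3% higher among all tested genes. Alignments that were not unique made up 29.65, 30.47 and 32.97% of those tallied in iRGCs and 25.87, 28.15 and 28.25% in cRGCs, so the populations did not overlap in this measure, and its part in the results was not tested. Of uniquely placed reads, 21.53, 20.47 and 12.33% overlapped no gene in iRGCs and 23.25, 18.36 and 18.5% in cRGCs, with iRGC replicate 3 the lowest. Fold changes throughout are iRGC over cRGC, values per library are given in the order of replicates 1, 2 and 3, and the library size behind CPM includes its TMM factor.

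Immediate early genes were higher in iRGCs. Of the 10 genes 9 passed an adjusted p-value of 0.1 in the edgeR quasi-likelihood test, all 9 in the direction of iRGCs, and only Dusp1 did not pass. The median log2 fold change of the 10 genes was 2.1, against -0.00307 over the 15941 genes tested. The 2 populations differed widely, and 46.4% of all tested genes passed the same threshold, 23.3% as higher and 23.1% as lower in iRGCs. In 9 of the 10 genes every iRGC library lay above every cRGC library, which held for 27.1% of all tested genes. Summed over the 10 genes, transcript levels were 1974, 3625 and 1531 CPM in iRGCs and 634.7, 751.7 and 801.2 CPM in cRGCs, a ratio of the means of 3.26. In sorted bulk samples such as these, a smaller share of cells that express a gene and less of its RNA per cell cannot be told apart. Without iRGC replicate 1, where Slc6a4 was lowest, all 10 genes passed the threshold, beside 7096 of the 16752 genes tested in that fit, in either direction.

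**Figure D1:**
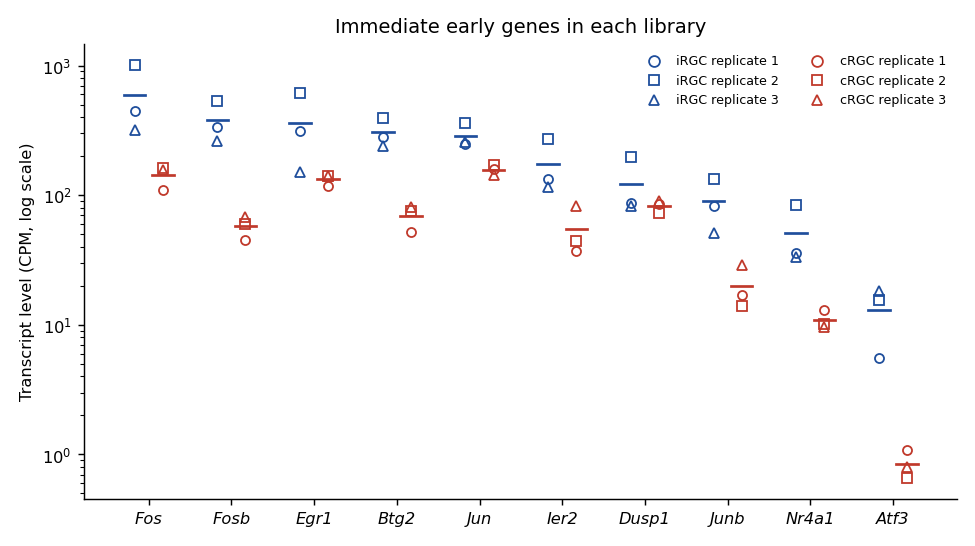
Transcript level of each immediate early gene in CPM (log scale) in the 3 iRGC libraries (blue) and the 3 cRGC libraries (red), ordered by the mean in iRGCs; symbols mark the replicate and bars the mean. The iRGC libraries lie above the cRGC libraries for every gene but Dusp1, and iRGC replicate 2 is the highest for every gene but Atf3.

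Fos, the most abundant of the 4 AP-1 subunits in iRGCs, lies at chr12:85473890-85477273 on the plus strand and encodes a leucine zipper protein that binds DNA as a partner of Jun. Its level was 447, 1016 and 320 CPM in iRGCs and 109.7, 163 and 156 CPM in cRGCs. Every iRGC library was above the cRGC libraries, and the spread within iRGCs was wide. The log2 fold change was 2.05 ± 0.39 (adjusted p = 0.00287), and without iRGC replicate 2 it was 1.42 (adjusted p = 0.00267). Fosb, its close relative (chr7:19302696-19310051, minus strand), stood at 338, 533 and 261 CPM in iRGCs and at 45.1, 59.6 and 68.2 CPM in cRGCs. The populations were well apart, with a log2 fold change of 2.71 ± 0.27 (adjusted p = 0.00022), the largest among the Fos and Jun members. 

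Jun, the main partner of Fos proteins and a target of the JNK kinases, is a gene of 1 exon at chr4:95049034-95052222 on the minus strand. Its level was 246, 357 and 257 CPM in iRGCs and 158, 170 and 144 CPM in cRGCs. The groups did not overlap, but Jun had the smallest fold change of the 9 genes past the threshold (log2 fold change 0.87 ± 0.15, adjusted p = 0.00223). Of its exonic bases 7.28% are shared with the antisense gene Junos. Junb, a Jun relative that often restrains Jun, is also listed with 1 exon (chr8:84974484-84978718, minus strand) and shares 7.52% of its exonic bases with Prdx2. Its merged exons cover 2301 bp of a span of 4235 bp, so the count of 1 cannot hold for the whole annotated gene. Junb stood at 83.1, 134 and 51.4 CPM in iRGCs and at 16.99, 14.01 and 28.98 CPM in cRGCs. iRGC replicate 2 was the highest of the iRGCs and replicate 3 of the cRGCs, the groups did not overlap, and the log2 fold change was 2.16 ± 0.37 (adjusted p = 0.00189). 

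Atf3, a leucine zipper factor of the stress response that pairs with Jun proteins, lies at chr1:191170296-191218039 on the minus strand. It was the scarcest of the 10 genes, at 5.596, 15.6 and 18.1 CPM in iRGCs (174, 504 and 574 reads) and at 1.08, 0.656 and 0.807 CPM in cRGCs (28, 19 and 25 reads). Atf3 had the largest fold change of the 10 genes (log2 fold change 3.95 ± 0.51, adjusted p = 0.000486). It was also the only one whose highest library was iRGC replicate 3.

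Egr1, a zinc finger transcription factor that SRF and its partners induce, is found at chr18:34859823-34864984 on the plus strand. Its level was 314, 617 and 152 CPM in iRGCs and 117, 140.3 and 140.4 CPM in cRGCs. iRGC replicate 3 was close to the cRGC libraries, and iRGC replicate 2 stood far above the others. The log2 fold change of 1.45 ± 0.41 passed the threshold (adjusted p = 0.0202), but it was 0.81 (adjusted p = 0.0539) without iRGC replicate 2. Nr4a1, an orphan nuclear receptor induced by calcium and growth factors (chr15:101254269-101274795, plus strand), stood at 35.9, 83.8 and 33.4 CPM in iRGCs and at 13.1, 10.1 and 9.68 CPM in cRGCs. The cRGC libraries were close together and all below the iRGC libraries (log2 fold change 2.22 ± 0.35, adjusted p = 0.00127). 

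Dusp1 and Btg2 are among the genes that shut the response off. Dusp1, a phosphatase that inactivates p38, JNK and ERK, lies at chr17:26505590-26562128 on the minus strand. Its level was 87.4, 198 and 82.2 CPM in iRGCs and 84.8, 73.4 and 89.5 CPM in cRGCs. iRGC replicates 1 and 3 lay within the range of the cRGC libraries, and the difference rested on iRGC replicate 2. Dusp1 did not pass the threshold (log2 fold change 0.57 ± 0.31, adjusted p = 0.179), and without iRGC replicate 2 its log2 fold change was 0.039 (adjusted p = 0.859). Leaving out iRGC replicate 1 or 3 instead gave 0.76 (adjusted p = 0.0963) and 0.78 (adjusted p = 0.0627). 

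Btg2, an antiproliferative protein that recruits the machinery of mRNA deadenylation and is known to mark neurogenic divisions of neural progenitors, lies at chr1:134075170-134079120 on the minus strand. It stood at 283, 396 and 239.7 CPM in iRGCs and at 52.0, 75.3 and 80.7 CPM in cRGCs. The groups were far apart and the iRGC libraries relatively close (log2 fold change 2.14 ± 0.22, adjusted p = 0.000241). Ier2, a nuclear protein of the immediate early response (chr8:84661331-84662852, minus strand, 1 exon), was found at 134, 273 and 115 CPM in iRGCs and at 36.9, 44.6 and 83.0 CPM in cRGCs. In log2 CPM its cRGC libraries spread more widely than those of any other of the 10 genes, with cRGC replicate 3 nearest to the iRGCs. The log2 fold change of Ier2 was 1.66 ± 0.38 (adjusted p = 0.00785).

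**Figure D2:**
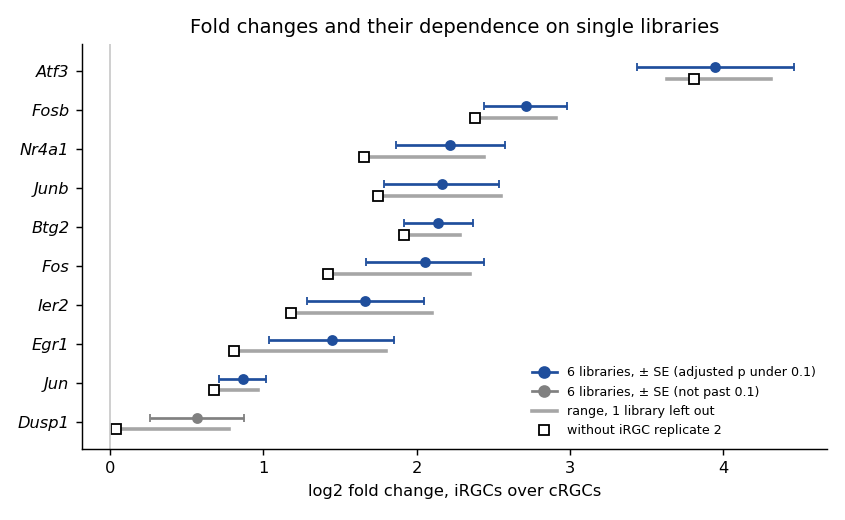
Log2 fold change of each immediate early gene, iRGCs over cRGCs, with its SE over the 6 libraries (filled points), the range over the 6 fits that leave out 1 library (grey bars) and the value without iRGC replicate 2 (open squares). Values run from 0.57 for Dusp1 to 3.95 for Atf3, and without iRGC replicate 2 Dusp1 is at 0.039.

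The 10 genes varied among the libraries of one population, above all in iRGCs. The SD of log2 CPM over 3 libraries had a median of 0.696 for the 10 genes in iRGCs, against 0.265 for all tested genes, and of 0.264 in cRGCs, against 0.191. Egr1 spread the most in iRGCs (SD 1.01) and Jun the least (0.293), while in cRGCs Ier2 spread the most (0.606) and Jun the least (0.123). iRGC replicate 2 had the highest level of the 6 libraries for 9 of the 10 genes, which was so for 2595 of the 15941 tested genes. In that library Fos and Egr1 stood at 2.65 times the mean of the other 2 iRGC libraries, Nr4a1 at 2.42 times, Dusp1 at 2.33 times, and Jun at 1.42 times. Without it, 9 of the 10 genes passed the threshold, again without Dusp1, beside 6629 of the 16585 genes tested in that fit, in either direction.

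Levels can be compared between genes only per length, and are given here as CPM per kilobase of merged exons (mean ± SD, n = 3). In iRGCs Fos was the highest at 253 ± 158, followed by Ier2 (114 ± 56.6), Btg2 (112 ± 29.3), Jun (89.99 ± 19.2), Egr1 (80.6 ± 52.7), Fosb (60.5 ± 22.5), Junb (39.0 ± 18.2), Dusp1 (37.0 ± 19.7), Nr4a1 (14.6 ± 8.10) and Atf3 (6.08 ± 3.07). From Fos down to Dusp1, neighbours in this order differed by less than the larger of their SDs. In cRGCs the order was Fos (60.8 ± 12.4), Jun (49.4 ± 4.19), Ier2 (36.0 ± 16.2), Egr1 (29.6 ± 2.98), Btg2 (25.3 ± 5.56), Dusp1 (24.9 ± 2.50), Fosb (9.23 ± 1.87), Junb (8.69 ± 3.44), Nr4a1 (3.12 ± 0.526) and Atf3 (0.393 ± 0.0989). Here the gaps between Dusp1 and Fosb, between Junb and Nr4a1 and between Nr4a1 and Atf3 were wider than either SD. Among the tested protein-coding genes, the level per kilobase of Fos was at percentile 99.7 in iRGCs and 95.7 in cRGCs. That of Fosb moved from percentile 59.8 in cRGCs to 96.7 in iRGCs. Fos was thus also abundant in cRGCs, where 4733 reads were counted on it in replicate 2.

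The control regions of these genes were searched for sequence features, which are shown for Fos, Nr4a1 and Btg2, of which every iRGC library was above the cRGC libraries, and for Dusp1, of which they overlapped. Promoters of 8 of the 10 genes, all but Egr1 and Ier2, from 250 bases before the start of transcription to 50 after it, came from RefSeq (GRCm38.p6). They were searched beside all 32851 promoters, on both strands, except that the TATA box TATAAA was searched on the strand of the gene alone. The core TGACG of the cAMP response element, which CREB and ATF proteins bind, was found in 7 of the 8, and in 20.8% of all promoters. The full element TGACGTCA, which holds the core on each strand, was found in Btg2 and Dusp1, and in 1.79% of all promoters. In the sequences below, read 5′ to 3′ on the strand of the gene and beginning 180 bases before its start, capitals mark the core, as TGACG or as its reverse complement CGTCA, the full element and the TATA box TATAAA.
Fos: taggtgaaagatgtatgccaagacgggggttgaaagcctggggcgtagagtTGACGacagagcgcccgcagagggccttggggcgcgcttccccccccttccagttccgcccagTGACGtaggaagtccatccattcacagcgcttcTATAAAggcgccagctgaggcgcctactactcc
Nr4a1: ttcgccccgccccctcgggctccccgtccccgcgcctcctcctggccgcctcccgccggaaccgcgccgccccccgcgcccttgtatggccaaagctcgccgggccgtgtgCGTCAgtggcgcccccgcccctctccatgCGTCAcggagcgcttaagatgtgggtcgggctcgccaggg
Btg2: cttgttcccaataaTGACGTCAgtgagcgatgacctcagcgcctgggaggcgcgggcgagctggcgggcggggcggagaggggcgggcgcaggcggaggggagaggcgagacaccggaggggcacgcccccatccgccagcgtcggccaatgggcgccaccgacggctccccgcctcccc
Dusp1: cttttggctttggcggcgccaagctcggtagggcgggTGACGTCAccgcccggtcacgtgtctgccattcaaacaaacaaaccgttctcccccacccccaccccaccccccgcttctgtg
The sequences lie at chr12:85473710-85473889 on the plus strand for Fos, chr15:101266666-101266845 on the plus strand for Nr4a1, chr1:134079156-134079335 on the minus strand for Btg2 and chr17:26508533-26508652 on the minus strand for Dusp1. The Nr4a1 stretch lies within an intron of a longer GENCODE transcript, and the Dusp1 stretch stops 61 bases before the start, since a GENCODE exon begins upstream of the RefSeq start.

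In Fos a core lies at bases -66 to -62, another at -129 to -125 and the TATA box at -33 to -28. The full element lies at -166 to -159 in Btg2 and at -143 to -136 in Dusp1, so both genes that shut the response off carry it, one past the threshold and the other not. Nr4a1 held 4 cores in the window, Dusp1 3 and Btg2 2, while Jun held none. TATAAA was found in Fos and Junb, and in 8.32% of all promoters. In Junb it lies at bases 0 to 5, on the start of transcription itself, and not before it as in Fos. The AP-1 site TGAGTCA was in none of the 8 and in 5.20% of all promoters, and the CArG box of SRF in none of the 8 and in 1.63% of all. The 8 promoters were rich in CpG, with an observed to expected ratio from 0.594 in Jun to 0.921 in Dusp1, against a median of 0.384 over all promoters. A match says only that these letters are in the window. A motif not found, the CArG box included, may lie outside the window, where no search was made.

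Most of the 10 genes span little of the genome, with Dusp1 (56539 bp) and Atf3 (47744 bp) as the longest. Their median span on the genome was 4698.5 bp, against 25819 bp over 13705 tested protein-coding genes, and 7 of the 10 spanned less than 10000 bp, as did 23.0% of the tested genes. Jun, Junb and Ier2 are listed with 1 exon, as are 2.77% of the tested genes. Their 3′ untranslated regions hold the AU-rich pentamer ATTTA, known from unstable mRNAs, in 9 of 10 genes (66.8% of tested genes), at a median of 2.89 per kilobase against 1.23. Only Ier2 had none. The longer element TTATTTATT was found once in Fos and 2 times in Dusp1, and in 7.5% of tested genes. It is shown for both in a stretch of 30 bases, with the overlapping pentamers in capitals, since these are the 2 genes that hold it.
Fos: cgtttttattgtgttttcaATTTATTTAtt
Dusp1: ggctcatgggagctggtccttATTTATTTA
These are bases 634 to 663 of the 3′ untranslated region of Fos and bases 84 to 113 of that of Dusp1, from GENCODE transcripts.

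The remaining AP-1 and ATF factors were mixed. Of 13 listed, 10 had enough counts to be tested, 4 were higher in iRGCs, 1 was lower and 5 did not pass the threshold, beside 23.3% higher and 23.1% lower among all tested genes, with a median log2 fold change of 0.40. Fosl2 (Fra-2), a Fos relative of slower kinetics, stood at 10.7, 11.5 and 10.7 CPM in iRGCs and at 1.15, 1.76 and 2.098 CPM in cRGCs (log2 fold change 2.71 ± 0.35, adjusted p = 0.000477). Atf1, a partner of CREB (1.56, adjusted p = 0.0012), and Jdp2, a repressor of AP-1 (0.78, adjusted p = 0.0929), were higher, and Atf2, a target of p38 and JNK, was lower (-0.27, adjusted p = 0.0594). Chosen after its values were seen, Jund, the Jun protein that most cells make without a stimulus, stood at 297, 407 and 494 CPM in iRGCs and at 311, 302.5 and 369.5 CPM in cRGCs, with a log2 fold change of 0.29 ± 0.18 (adjusted p = 0.245). Jund shares 52.6% of its exonic bases with Gm11175 and Jdp2 7.68% with Gm47863, so their counts are uncertain. 

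Other rapidly induced transcription factors were more often higher than lower in iRGCs. Of 24 tested, 15 were higher, beside 23.3% of all tested genes, 1 was lower and 8 did not pass, with a median log2 fold change of 1.35. Klf2 stood at 8.04, 27.1 and 11.6 CPM in iRGCs and at 1.42, 0.897 and 1.32 CPM in cRGCs (log2 fold change 3.68 ± 0.51, adjusted p = 0.000625). Klf4 (3.42, adjusted p = 0.000201) and Cebpb (3.23, adjusted p = 0.0419), which shares 20.7% of its exonic bases with Tmem189, were also higher, and Myc, a driver of growth, was lower (-0.97, adjusted p = 0.0547). Cebpb had only 0, 30 and 11 reads in cRGCs, and the SE of its log2 fold change was 1.09. The Krüppel-like factor Klf2 is also known from endothelial cells, and the list includes Id1, Id2, Id3 and Hes1, which retinal progenitors are known to express. Among genes chosen after their values were seen, the Egr relatives Egr2 (3.03, adjusted p = 0.000735) and Egr3 (2.21, adjusted p = 0.00475) were higher, while Egr4 did not pass (2.04 ± 1.203, adjusted p = 0.218). Also chosen in this way, Npas4, a factor that calcium entry induces in neurons, stood at 2.06, 4.76 and 10.5 CPM in iRGCs and at 11.2, 5.90 and 5.81 CPM in cRGCs. Npas4 did not pass the threshold (-0.40 ± 0.56, adjusted p = 0.618), nor did Nr4a3 (-0.60 ± 0.64, adjusted p = 0.507), whereas Nr4a2 was higher (1.27 ± 0.31, adjusted p = 0.0105). Both are relatives of Nr4a1.

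Of 33 other feedback and effector genes of the rapid response, 32 were tested, 21 were higher in iRGCs, 3 were lower and 8 did not pass, beside 23.3% higher and 23.1% lower among all tested genes (median log2 fold change 1.04). Ccn2, a matricellular protein also known as Ctgf, stood at 42.9, 22.3 and 38.1 CPM in iRGCs and at 3.42, 4.00 and 2.81 CPM in cRGCs (log2 fold change 3.34 ± 0.29, adjusted p = 0.000205), though 23.2% of its exonic bases are shared with Gm15270. Ccn1, its relative (3.25, adjusted p = 0.000237), and Gadd45b, a stress sensor (2.71, adjusted p = 0.038), were higher. Gadd45b had only 20, 3 and 13 reads in cRGCs, and the SE of its log2 fold change was 0.886. On the lower side were Vgf, a secreted neuropeptide precursor (-1.79, adjusted p = 0.00876), Dusp4, a nuclear phosphatase of MAP kinases (-0.99, adjusted p = 0.00705), and Plk3 (-0.60, adjusted p = 0.0616). Dusp5 and Dusp6, phosphatases of ERK named here after their values were seen, had log2 fold changes of 2.48 (adjusted p = 0.000205) and 1.49 (adjusted p = 0.00616), so the members of the Dusp family that were tested lay on both sides of 0. Of the exonic bases of Dusp5, 22.1% also belong to an overlapping gene. 

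**Figure D3:**
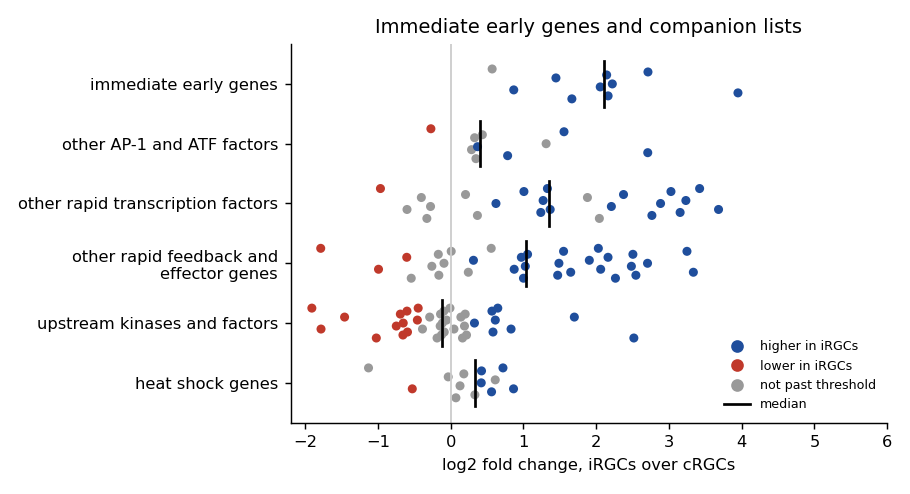
Log2 fold change, iRGCs over cRGCs, of each tested gene of 6 lists; blue points are higher and red points lower in iRGCs at an adjusted p under 0.1, grey points did not pass, and black bars are medians. The median is highest for the immediate early genes (2.1) and lowest for the upstream kinases and factors (-0.115).

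The kinases and factors upstream of the response did not share its direction. Of 37 genes tested 8 were higher in iRGCs, 12 were lower and 17 did not pass, beside 23.3% higher and 23.1% lower among all tested genes, with a median log2 fold change of -0.115. Elk3, a ternary complex partner of SRF, stood at 19.2, 19.97 and 8.61 CPM in iRGCs and at 1.19, 3.31 and 3.81 CPM in cRGCs (log2 fold change 2.52 ± 0.49, adjusted p = 0.00339). Srf itself was higher (1.70 ± 0.32, adjusted p = 0.00272), at 236, 134 and 384 CPM in iRGCs and 82.5, 76.6 and 73.0 CPM in cRGCs. Within iRGCs Srf was lowest in replicate 2, the library in which 9 of the 10 immediate early genes were highest. A link between them was not tested. Crem, a CREB relative, was higher as well (0.83, adjusted p = 0.0331). Elk3 shares 6.95% of its exonic bases with Cdk17, and Crem 8.01% with Gm6225. On the lower side were the neuronal JNK Mapk10 (-1.91, adjusted p = 0.000284), the p38 kinase Mapk11 (-1.78, adjusted p = 0.000243) and Map3k12, the axonal kinase DLK (-1.46, adjusted p = 0.000205), which shares 19.3% of its exonic bases with Pcbp2. 

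Mapk10 stood at 26.8, 29.9 and 44.9 CPM in iRGCs and at 151, 108 and 122.5 CPM in cRGCs. The other JNK genes, named after their values were seen, were lower in iRGCs too. Mapk8 had a log2 fold change of -1.02 (adjusted p = 0.000443) and Mapk9 of -0.66 (adjusted p = 0.00126). Mapk3, an ERK gene named in the same way, was lower as well (-0.65, adjusted p = 0.00121). Jun itself was higher in iRGCs, and any bearing of JNK transcript levels on it was not tested. 

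**Figure D4:**
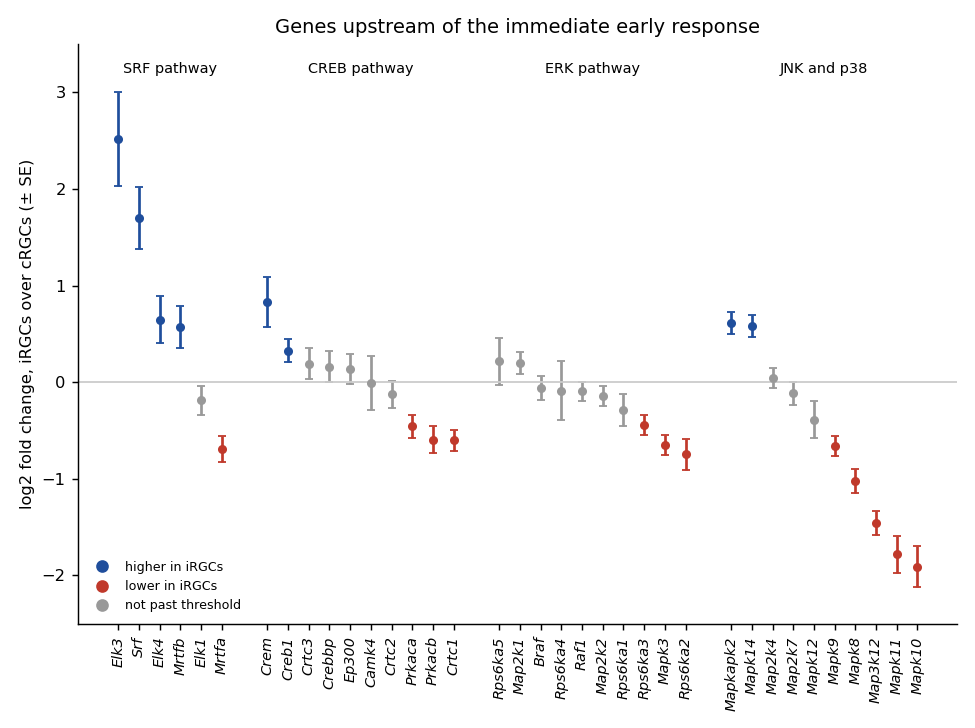
Log2 fold change (± SE), iRGCs over cRGCs, of genes upstream of the response, grouped by pathway; blue is higher and red lower in iRGCs at an adjusted p under 0.1. Elk3 (2.52) and Srf (1.70) are the highest and the JNK gene Mapk10 (-1.91) the lowest.

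Heat shock genes respond to stress by another route. Of 14 listed 13 were tested, 5 were higher in iRGCs, 1 was lower and 7 did not pass, beside 23.3% higher and 23.1% lower among all tested genes, with a median log2 fold change of 0.33. Hsph1 (0.86, adjusted p = 0.000461), Hspa5, the chaperone of the endoplasmic reticulum (0.72, adjusted p = 0.00411), and Hspd1 (0.56, adjusted p = 0.00419) were higher, and Dnaja1, which shares 10.8% of its exonic bases with Smu1, was lower (-0.53, adjusted p = 0.00484). The near-identical Hspa1a and Hspa1b, the classic inducible pair, stood at no more than 3.46 CPM in each library. Their counts are uncertain, because reads that match both copies would be tallied as not unique and left out. 

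Markers of several other cell types were higher in iRGCs too, and the counts of higher markers stand beside 23.3% of all tested genes that were higher in iRGCs. Retinal progenitor markers summed to 8865, 7716 and 6625 CPM in iRGCs and to 724.9, 1987 and 1239 CPM in cRGCs, with Ccnd1 the most abundant. Neurogenic precursor markers, 11 of 11 higher in iRGCs and led by Hes6, summed to 2056, 2007 and 1950 CPM against 426.9, 731.3 and 584.4 CPM. RGC markers, led by Nefm, summed to 2271, 3195 and 4905 CPM against 12830, 11660 and 14100 CPM, and none was at 0 in any library. The progenitor sum was highest in iRGC replicate 1, and the precursor sums of the iRGC libraries were close together, with 2 of the 11 progenitor and 5 of the 11 precursor markers highest in iRGC replicate 2. Amacrine and horizontal cell markers, led by Tfap2b, were higher in 6 of 9 and summed to 404.9, 336.6 and 453.0 CPM against 182.0, 220.1 and 169.6 CPM. 

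Most vascular and blood markers did peak in iRGC replicate 2, namely 8 of the 10 endothelial, 6 of the 8 mural and 6 of the 8 erythroid markers. The endothelial markers Kdr and Cldn5 were highest in iRGC replicates 3 and 1. Endothelial markers were higher in iRGCs in 6 of the 6 tested of 10 and summed to 468.1, 699.1 and 433.8 CPM against 87.7, 107.7 and 70.5 CPM, led by Kdr, which retinal progenitors are also known to express. Without Kdr the sums were 102.1, 378.6 and 15.7 CPM in iRGCs and 4.00, 4.80 and 2.90 CPM in cRGCs. In iRGC replicate 3 Pecam1 was at 0.284, Cdh5 at 0.158 and Tie1 at 0.0631 CPM, but Cldn5 at 11.76 and Flt1 at 2.59 CPM, above the cRGC libraries. In replicate 2 Pecam1, Cdh5 and Tie1 stood at 53.0, 81.3 and 44.1 CPM, and in cRGCs Cdh5 and Tie1 were at 0 in every library. Several vascular, blood and microglia markers were near 0 in cRGCs, and such genes could pass the count filter through iRGC libraries alone. Alas2, an erythroid marker, was tested with 0 reads in each cRGC library. For these lists the direction was thus partly set by the filter, and the 23.3% of all tested genes is no like measure. 

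Mural cell markers were higher in 4 of the 5 tested of 8 and summed to 135.1, 277.3 and 120.3 CPM against 20.8, 31.8 and 23.1 CPM, led by Notch3, which progenitors are also known to express. The pericyte gene Rgs5 stood at 3.76, 93.8 and 2.24 CPM in iRGCs. The mural markers Tagln and Acta2 were instead highest in iRGC replicate 3. Tagln stood at 3.184, 2.844 and 13.02 CPM in iRGCs, and Acta2 at 0.03216, 0.4018 and 1.577 CPM. Tagln shares 67.9% of its exonic bases with Gm48529. Microglia markers, led by Csf1r, were higher in 4 of the 7 tested of 9 and summed to 17.8, 28.4 and 20.02 CPM against 1.31, 4.87 and 1.49 CPM. Erythroid markers, led by Hbb-bs, were higher in 4 of the 5 tested of 8 and summed to 12.2, 94.7 and 15.7 CPM against 0, 5.49 and 0.290 CPM. Without iRGC replicate 2, 6629 of the 16585 genes tested in that fit passed the threshold in either direction. Of the markers, 2 of the microglia list, 1 of the erythroid list and 4 of the endothelial list passed. So did 4 of the mural list and 1 of the fibroblast list, and 0 of the pigment epithelium list passed. Of the fibroblast markers 1 of the 4 tested was higher (Col1a2, the most abundant), with sums of 17.7, 28.8 and 9.59 CPM against 11.99, 10.9 and 10.9 CPM, and of the pigment epithelium markers, led by Mitf, none of the 4 tested passed, with sums of 7.11, 7.64 and 3.5 CPM against 1.69, 4.04 and 2.58 CPM. Of these markers Lum was at 0 in all 6 libraries, and Cdh5, Tie1, Kcnj8, Acta2, Alas2, Col3a1, Dcn, Rpe65 and Ttr in all 3 cRGC libraries. The part of progenitors, precursors and vascular or blood cells in the levels of the immediate early genes was not tested. The code names of the libraries also differ between the populations, and what these codes mark is not given in the sources used here. 

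**Figure D5:**
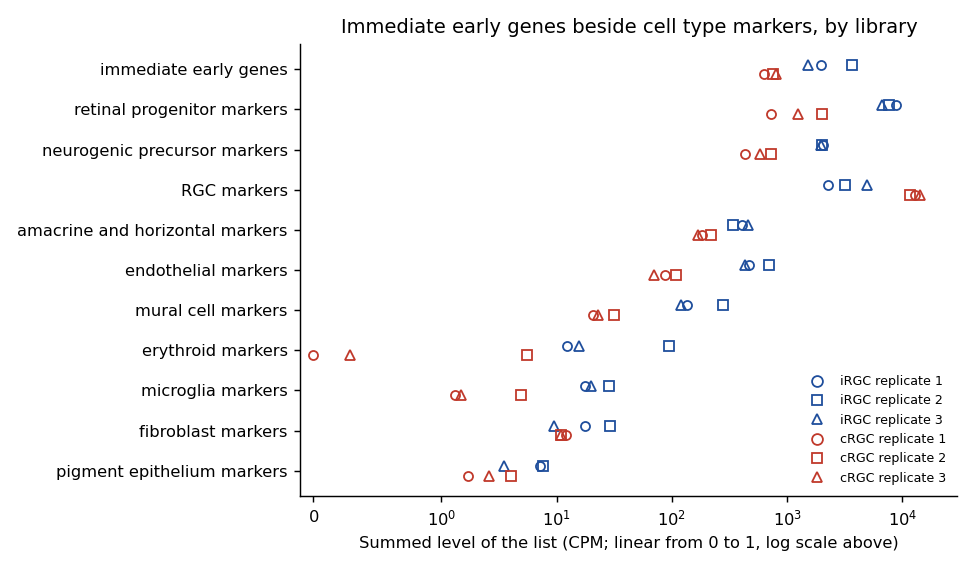
Summed CPM of the immediate early genes and of each list of cell type markers in the 3 iRGC libraries (blue) and the 3 cRGC libraries (red); the axis is linear from 0 to 1 and logarithmic above. The immediate early genes and the endothelial, mural, erythroid, microglia, fibroblast and pigment epithelium markers are highest in iRGC replicate 2, whereas the progenitor markers are highest in iRGC replicate 1.

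The genes most like the 10 in their pattern were sought among 10255 tested genes of at least 10 CPM on average, by the root mean square difference of log2 CPM, centred on the mean of each gene, over the 6 libraries. The mean pattern of the 10 genes was 0.65, 1.58 and 0.495 in iRGCs and -1.04, -0.957 and -0.727 in cRGCs. The imprinted gene Mest was nearest (difference 0.109), at 339, 619.7 and 250.2 CPM in iRGCs and 85.3, 104.8 and 119 CPM in cRGCs. Megf6 (0.165), Fbn2, which encodes a fibrillin of the extracellular matrix (0.199), Dna2, a nuclease and helicase of DNA replication (0.226), and Lamc1, a laminin chain of basement membranes (0.234), followed. Among the 10 genes themselves the difference was smallest for Fos (0.222), Btg2 (0.247), Nr4a1 (0.257) and Ier2 (0.275) and largest for Dusp1 (0.694) and Atf3 (0.887).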

How the data were processed

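RNA-seq of the 3 iRGC and 3 cRGC libraries was analysed, and the 13 ATAC-seq samples were not used here. Reads had been placed on mm10 by the authors with HISAT2 2.1.0 and assigned to Ensembl GRCm38 genes with HTSeq 0.11.1, and raw counts per gene were deposited as 1 table per library. The strand setting of the counting is not given in the sources used here. Libraries held 28193178 to 33638083 reads on genes. HTSeq's tallies that name no gene were left out, and 12.33% to 23.25% of uniquely placed reads overlapped no gene. Symbols, positions and lengths came from GENCODE M21 (GRCm38) for 46574 of the 47069 genes.

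The test of counts was that of edgeR 4.0.16 in R 4.3.3 (filterByExpr, TMM, quasi-likelihood test, no covariate, Benjamini-Hochberg adjustment over 15941 genes), and an adjusted p under 0.1 was the threshold. The biological coefficient of variation was 36.3%. Alternatives were other size factors, DESeq2 1.42.0, limma 3.58.1 voom, other filters and thresholds, each library left out, and a block for the replicate number. The script was tested on simulated data.

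The members and gene lists were chosen with earlier results of these data known. Besides the 10 members, up to 3 genes per list and direction were named, those of largest fold change past the threshold with at least 1 CPM on average in one population, the label genes and the 5 genes of most similar pattern. A few more, and single cell type markers, were named outside this rule after their values were seen. Libraries of one population differed by more than sampling noise. Single results for some genes of the lists are not reported here.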

Additional observations from a re-analysis of the deposited data

How the results depend on the processing

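Of 170 refits of the 10 genes, 165 kept direction and side of the threshold. Dusp1 passed the threshold with the DESeq2 test (log2 fold change 0.575, adjusted p = 0.0992) and with no filter (0.563, adjusted p = 0.0927), and over the fits without 1 library it ran from 0.0394 to 0.780. Jun, at 0.866, fell out when an absolute log2 fold change above 1 was also asked. Between 8 and 10 of the 10 genes were higher in iRGCs under every alternative run, and 0 were lower. With the stricter rule on fold change, 2 other AP-1 and ATF factors were higher and 0 lower, 0 other rapid transcription factors were lower, 1 feedback gene was lower, 2 upstream genes were higher and 4 lower, and 0 heat shock genes were higher and 0 lower. At an adjusted p under 0.05, 5 upstream genes were higher, and 0 AP-1 and ATF factors and 0 other rapid transcription factors were lower; no filter also left 0 AP-1 and ATF factors lower. Without 1 library, lower AP-1 and ATF factors numbered 0 to 1, lower rapid transcription factors 0 to 2 and higher upstream genes 5 to 8. The causes were not tested.

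With a replicate block, 9 of the 10 genes passed (Fos 1.90, adjusted p = 0.00393; Egr1 1.23, adjusted p = 0.039; Dusp1 0.443, adjusted p = 0.31), 0 other rapid transcription factors were lower, and 6751 genes in all passed, against 7395. The deviations of same-numbered libraries correlated over genes at -0.0121, -0.0237 and -0.055. Values this near 0 show no pairing by number, but they cannot decide whether such libraries were prepared together.

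Per kilobase of coding sequence, iRGC levels were 521.7 (Fos), 372.3 (Fosb), 286.4 (Jun), 86.85 (Junb), 24.11 (Atf3), 225.9 (Egr1), 28.32 (Nr4a1), 111.2 (Dusp1), 646.1 (Btg2) and 262.3 CPM (Ier2), which puts Btg2 above Fos. On the same scale in cRGCs, Jun (157.1 CPM) and Btg2 (146.2 CPM) stood above Fos (125.5 CPM). Of 474 refits of the other genes that the rule named 437 were unchanged in direction and side of the threshold, 34 lost the threshold and 3 reversed, all of Slc6a4 (-0.859 with limma voom, over fits without 1 library from -1.11 without iRGC replicate 3 to 0.982 without iRGC replicate 1, and -0.535 with the replicate block).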

Other observations

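Ratios of members within a library, chosen after their values were seen and given per kilobase of exon as a description, were also read in each library. The level of Fosb as a percentage of that of Fos was 28.5, 19.8 and 30.7 in iRGCs and 15.5, 13.7 and 16.4 in cRGCs. That of Dusp1 relative to Fos was 13.9, 13.8 and 18.2% in iRGCs and 54.9, 31.9 and 40.7% in cRGCs, and that of Jun relative to Fos 40.6, 25.9 and 59.3% in iRGCs and 106, 77.0 and 67.9% in cRGCs. Egr2, a zinc finger factor known from the hindbrain and myelinating glia, reached 11.7, 10.3 and 12.8% of the level of Egr1 in iRGCs and 3.25, 3.15 and 4.58% in cRGCs. The level of Jund relative to Jun was 231, 218 and 367% in iRGCs and 376, 339 and 491% in cRGCs. The populations did not overlap in the first 4 ratios and overlapped in that of Jund. Fosl1 (Fra-1), which shares 57.2% of its exonic bases with Ccdc85b, was too scarce to be tested, with 38, 11 and 6 reads in iRGCs and 0 reads in each cRGC library.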
